A study of Mus musculus with 6 samples.

Results

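The genes described here are those of arginine and nitric oxide metabolism, chosen by symbol: the transporters Slc7a1 and Slc7a2, the arginases Arg1 and Arg2, the arginine-rebuilding enzymes Ass1 and Asl, the nitric oxide synthases Nos1, Nos2 and Nos3, and the cofactor enzyme Gch1. All 10 were found among the 23183 genes of the deposited tables. RNA of whole mouse lung (strain background C57BL/6) was sequenced in 3 libraries from lungs instilled through the trachea with saline and 3 from lungs instilled in the same way with lipopolysaccharide (LPS), a component of the outer membrane of Gram-negative bacteria. The labels state neither dose, time after instillation, age nor sex, nor do they say whether the libraries came from separate animals, so the p-values measure only the spread between these libraries, which may be technical. All titles name wild-type mice, but the genotype field names LCN2-/- for LPS 1 and LPS 2 and LCN4-/- for LPS 3. RNA of Lcn2, which encodes lipocalin-2, was at 13.29 to 13.82 in the 3 LPS libraries and 8.20 to 11.28 in saline, which goes against a loss of that transcript in LPS 1 and LPS 2. Were the genotype field correct, all differences below would hold for treatment and genotype together, which cannot be told apart.

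Arginine is the substrate of competing enzymes. Nitric oxide synthases turn it into nitric oxide and citrulline with the help of tetrahydrobiopterin, whose synthesis starts with GTP cyclohydrolase 1, the product of Gch1. Nitric oxide made by the endothelial enzyme (Nos3) relaxes vessels through soluble guanylate cyclase and cyclic GMP, and the inducible enzyme (Nos2) makes large amounts in activated macrophages and epithelium. Arginases split arginine into ornithine and urea, Arg1 in the cytosol and Arg2 in mitochondria, and Ass1 and Asl rebuild arginine from citrulline.

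Libraries of the same group resembled each other more than those of the other group (Pearson correlation across 18699 genes, which are not independent replicates, 0.985 to 0.994 within groups and 0.925 to 0.970 between them). Lung identity was clear, with the club cell gene Scgb1a1 at 15.90 to 17.32 and the surfactant gene Sftpc at 13.46 to 14.004 in all 6 libraries. Of 10 epithelial markers 2 were called higher and 1 lower in LPS by the test described below, beside 25.7% and 24.3% of all genes tested. Saline 2 stood apart within its group: 9 neutrophil markers summed to 2001 there before the log, 657 in saline 1, 707 in saline 3 and 9938 to 25555 in LPS. The table of LPS 3 breaks off inside the row of Slc25a45, so that 4484 genes, 19.3% of the total, have no value in it, Slc7a1 and Slc7a2 among them. Levels below are the deposited values, log2(value + 1), from which each difference was taken as the LPS mean minus the saline mean. Depth is unknown, since the tables hold no counts.

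The genes that split arginine and the gene that starts cofactor synthesis rose steeply in the LPS libraries, while no nitric oxide synthase gene passed the test. Arg1 rose by 3.90, Arg2 by 2.83 and Gch1 by 2.06. The transporters and the arginine-rebuilding enzymes rose by 0.48 to 0.80, differences that did not hold under every scaling of the libraries. Other scalings tried were quantile normalization, which gives all libraries the same distribution, and equal sums, which gives them the same total before the log. Of the 10 genes, 9 reached the minimum level for testing, a value before the log of at least 1 in at least 3 libraries (Nos1 did not). At a Benjamini-Hochberg adjusted p under 0.05, 7 were called higher and 0 lower by limma, beside 25.7% of all 13116 genes tested called higher, 24.3% called lower and 50.1% called in either direction. Groups did not overlap, with LPS above, for those 7 genes, beside 32.7% of all genes tested, and with LPS below for 0 of the 9, beside 30.7%. The median difference of the 9 genes was 0.74, against 0.02 over all genes tested.

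**Figure D1:**
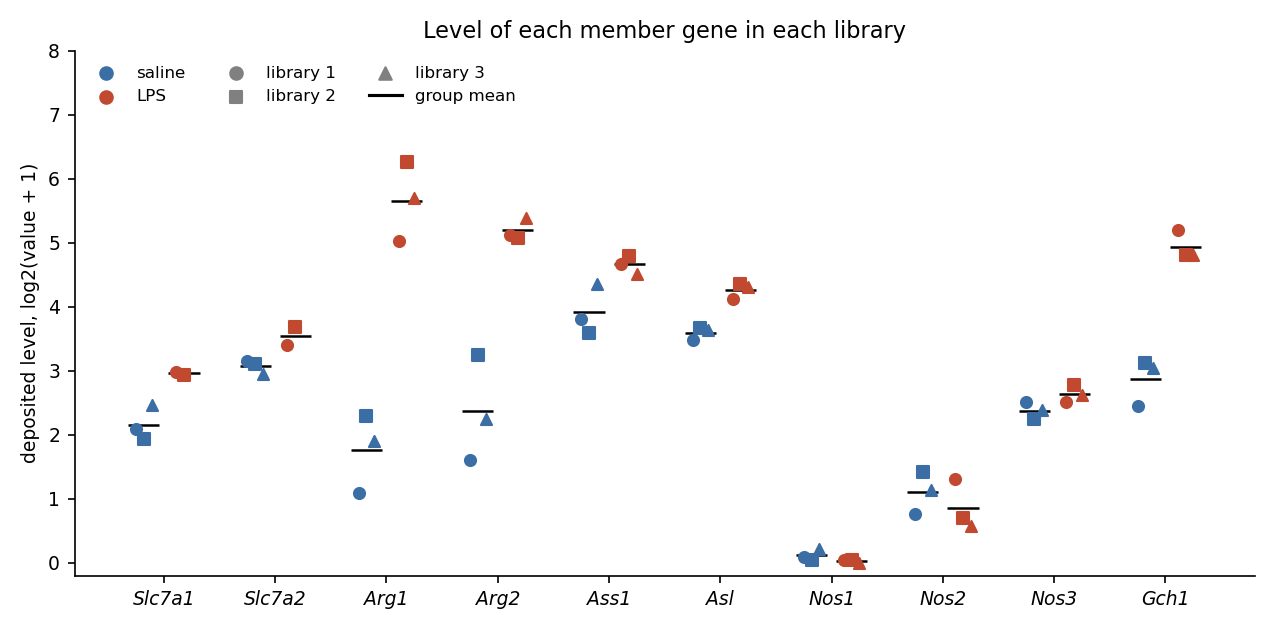
Deposited level, log2(value + 1), of each of the 10 genes in each library (blue saline, red LPS; marker shape gives the library number, black bars the group means). Arg1, Arg2 and Gch1 show the widest gaps between groups, Nos1, Nos2 and Nos3 overlap, and Slc7a1 and Slc7a2 have 2 LPS points because the table of LPS 3 ends before them.

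Arg1 (ENSMUSG00000019987.9; chromosome 10, 24915221 to 24927484, minus strand, mm10) stood at 1.09, 2.29 and 1.90 in saline 1, 2 and 3 and at 5.02, 6.26 and 5.69 in LPS 1, 2 and 3. The lowest LPS library lay 2.73 above the highest saline library. The mean was 1.76 ± 0.61 (SD, n = 3) in saline and 5.66 ± 0.62 (SD, n = 3) in LPS, a difference of 3.90 (SE 0.35; limma adjusted p = 9.73e-05), or 14.9-fold on the value + 1 scale. Only 0.313% of all genes tested had a larger positive difference. Arg1 is known in the lung as a gene of macrophages exposed to type 2 cytokines or to bacterial products.

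Arg2 (ENSMUSG00000021125.6; chromosome 12, 79130777 to 79156301, plus strand) stood at 1.60, 3.25 and 2.25 in saline and at 5.12, 5.08 and 5.38 in LPS. The 3 LPS values were close together, and the saline values spread widely with saline 2 highest, as for Arg1. The mean rose from 2.37 ± 0.83 (SD, n = 3) to 5.19 ± 0.17 (SD, n = 3), by 2.83 (SE 0.34; limma adjusted p = 0.000333), or 7.09-fold. Exons of Arg2 overlap those of Vti1b, a vesicle fusion gene on the other strand, over 285 identical bases in the transcripts compared. Vti1b was more abundant (6.22 to 6.80 in saline, 7.04 and 7.25 in LPS 1 and 2) and differed by 0.72 (limma adjusted p = 0.0292). The labels name a directional library kit, but how the counting used strand is not given, and reads of the shared stretch may have been counted for either gene.

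Arg1 and Arg2 differences were past the threshold under all 15 other settings tried for them (processing choices and libraries left out), at 3.23 to 4.36 for Arg1 and 2.13 to 3.27 for Arg2. Without saline 2 the difference was 4.16 for Arg1 and 3.27 for Arg2. Markers of infiltrating cells moved in the same libraries. The marker counts here stand beside 25.7% of all genes tested called higher and 24.3% called lower. Of 10 neutrophil markers 9 were higher and 0 lower in LPS, led in level by S100a8 (difference 4.18) and S100a9 (4.12), and of 10 markers of monocytes and recruited macrophages 10 were higher, led in level by Chil3 (0.55) and Cd68 (0.87), with a sum of 291 to 448 in saline and 689 to 1053 in LPS. LPS 1, the LPS library with the least Arg1, had the highest sums of both lists (25555 and 1053), and LPS 2, with the most Arg1, the lowest (9938 and 689). Among the saline libraries, saline 2 had both the most Arg1 and the highest sums of both lists (2001 and 448). Of 10 resident alveolar macrophage markers 7 were lower and 1, Chil3, was higher, with a sum of 355 to 483 in saline and 384 to 428 in LPS. Chil3 is in this list and in that of monocytes and recruited macrophages. It accounted for 166 to 225 of each sum in saline and 270 to 300 in LPS. The mean log2 level of the 10 resident markers was 4.24 to 4.52 in saline and 2.81 to 3.27 in LPS. Arg1 is also a liver enzyme. The 9 liver markers with a value in every library summed to 4.69 to 10.03 in saline and 1.28 to 3.72 in LPS, and both liver markers tested, Apoa2 and Ahsg, were lower. Of 6 red blood cell markers 3 were higher and 0 lower, and the 5 with a value in every library summed to 1073 to 1802 in saline and 2820 to 5018 in LPS. The part of infiltrating cells in the arginase result was not tested, and in whole tissue more cells of a type and more RNA per cell cannot be told apart.

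The profiles over the 6 libraries closest to that of Arg1, by root mean square distance after centring among 10294 other genes, were those of Hpx (0.47), which encodes the haem-binding protein hemopexin, the LPS co-receptor gene Cd14 (0.49), Bcl2a1a (0.53), a survival gene of myeloid cells, the acute phase gene Orm2 (0.54) and Nfkbia (0.54), which encodes an inhibitor of NF-kB. In all 5 the order within saline was that of Arg1, with saline 1 lowest and saline 2 highest: Hpx was at 1.25, 2.90 and 2.01, and Cd14 at 4.60, 6.09 and 5.23. The genes were picked for closeness over these same libraries, so a shared order follows in part from that choice.

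Nos2 (ENSMUSG00000020826.8; chromosome 11, 78920787 to 78960254, plus strand), the inducible synthase, was a low transcript in both groups. It stood at 0.77, 1.43 and 1.14 in saline and at 1.31, 0.70 and 0.58 in LPS. The LPS values lay among and below the saline values, and the groups overlapped. The mean was 1.11 ± 0.33 (SD, n = 3) in saline and 0.86 ± 0.39 (SD, n = 3) in LPS, a difference of -0.25 (SE 0.23; limma adjusted p = 0.398) with a 95% confidence interval of -0.77 to 0.28. Nos2 reached the minimum level in just 3 libraries (saline 2, saline 3 and LPS 1) and passed the filter in 10 of the other settings. Its difference turned to 0.06 with quantile normalization and was called lower with equal sums (-0.64; limma adjusted p = 0.0298), where the median of all genes was itself at -0.68. The profiles closest to that of Nos2 were those of Fam111a (0.07), Cenpk (0.10), Gnpda1 (0.11), Haus8 (0.12) and Gimap5 (0.14), none of which differed between groups by more than 0.25. These genes too were picked for closeness over the same libraries, so their small differences follow in part from that choice.

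Nos3 (ENSMUSG00000028978.12; chromosome 5, 24364810 to 24384474, plus strand), the endothelial synthase, stood at 2.51, 2.24 and 2.39 in saline and at 2.51, 2.78 and 2.63 in LPS. The highest saline and the lowest LPS value were equal to 2 decimals. The difference was 0.26 (SE 0.15; limma adjusted p = 0.161; 95% confidence interval -0.07 to 0.59), with means of 2.38 ± 0.13 and 2.64 ± 0.14 (SD, n = 3 each), and it was called higher with quantile normalization (0.47; limma adjusted p = 0.0258) but stood at -0.41 with equal sums. Nos3 shares 294 bases of exon with Atg9b on the other strand, a gene at 0.16 to 0.52 in all libraries. Of 10 endothelial markers 4 were lower and 0 higher in LPS, beside 24.3% and 25.7% of all genes tested. The 8 with a value in every library summed to 1184 to 1296 in saline and 903 to 1233 in LPS. The most abundant, Cldn5 (0.20) and Ramp2 (-0.35), did not pass.

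Nos1 (ENSMUSG00000029361.18; chromosome 5, 117781032 to 117958840, plus strand), the neuronal synthase, was at or near 0: 0.10, 0.04 and 0.22 in saline and 0.04, 0.05 and 0 in LPS. It did not reach the minimum level and was not tested. Low values differ between the deposited files of both groups: 1505 to 1936 genes of each saline library lie above 0 but under 0.01, and 11 to 24 genes of each LPS library. Of 6 neuron and glia markers tested 2 were higher and 2 lower, beside 25.7% and 24.3% of all genes tested. The 5 markers of that list with a value in every library summed to 2.54 to 6.28 in saline and 2.98 to 3.76 in LPS.

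Set side by side on the scale before the log, where the values appear scaled by gene length and can be added, arginase and synthase RNA parted. The summed value of Arg1 and Arg2 was 3.16, 12.4 and 6.51 in saline and 65.3, 108 and 91.5 in LPS. The summed value of the 3 synthases was 5.46, 5.44 and 5.597 in saline and 6.18, 6.54 and 5.68 in LPS. The ratio of the arginase sum to the synthase sum was 0.579 to 2.28 in saline and 10.6 to 16.6 in LPS. Nos3 made up most of the synthase sum, and Nos2 12.8%, 31.0% and 21.4% of it in saline and 23.8%, 9.62% and 8.67% in LPS. Arg1 was 31.4% to 42.1% of the arginase sum in saline and 48.3% to 69.7% in LPS. These sums and ratios describe the libraries and were not tested. The sums hold for the deposited scaling, whereas a ratio within a library stays the same when all its values are multiplied by the same factor. With equal sums, Nos3 differed by -0.41 and Nos2 by -0.64, beside 3.23 for Arg1 and 2.13 for Arg2. The median of all genes tested was then -0.68.

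**Figure D2:**
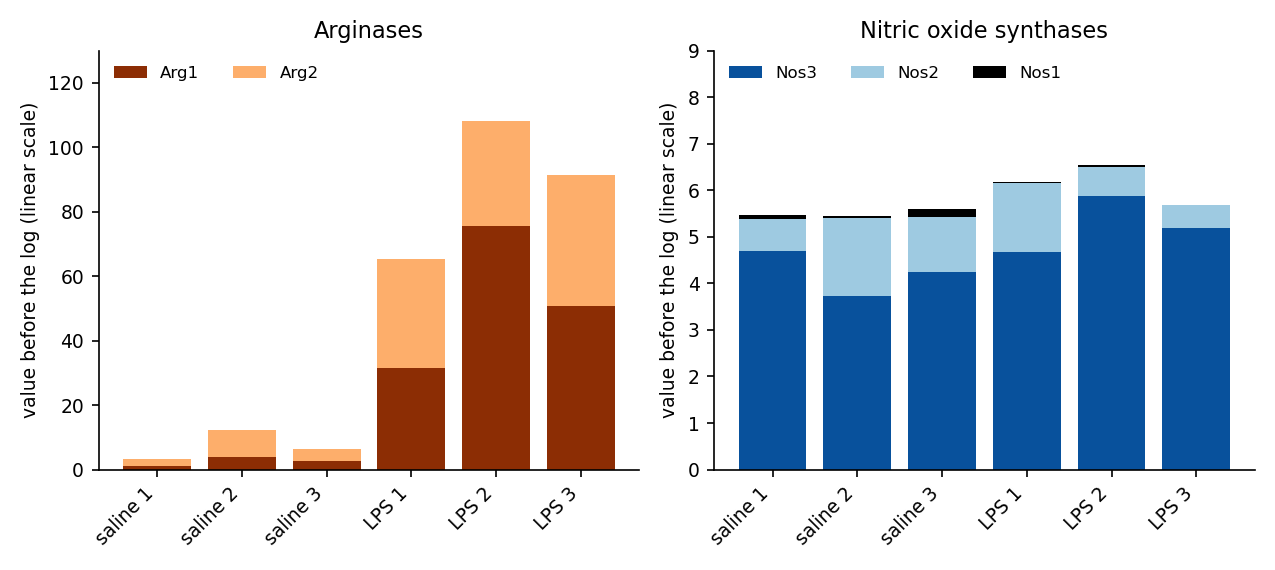
Value before the log (linear, stacked) of the arginases Arg1 and Arg2 (left) and of the synthases Nos3, Nos2 and Nos1 (right) in each of the 6 libraries; the vertical scales of the panels differ. As deposited, the arginase sum is at most 12.4 in saline and at least 65.3 in LPS. The synthase sum stays between 5.44 and 6.54 on that scaling.

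Gch1 (ENSMUSG00000037580.10; chromosome 14, 47153895 to 47189413, minus strand) stood at 2.45, 3.12 and 3.05 in saline and at 5.19, 4.80 and 4.81 in LPS. Every LPS value exceeded the highest saline value by at least 1.69. The mean rose from 2.87 ± 0.37 (SD, n = 3) to 4.94 ± 0.22 (SD, n = 3), by 2.06 (SE 0.21; limma adjusted p = 0.000153) or 4.18-fold, and the call held under all 15 other settings (1.33 to 2.25). The ratio of Gch1 to the synthase sum before the log was 0.818 to 1.41 in saline and 4.12 to 5.76 in LPS.

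The remaining tetrahydrobiopterin genes moved less. Of 7 tested, 2 were called higher and 0 lower, a share higher that is near the 25.7% of all genes tested, with a median difference of 0.29. Pts, which encodes the enzyme acting after GTP cyclohydrolase, rose by 0.74 (SE 0.16; limma adjusted p = 0.00523), and Pcbd1, which encodes a recycling enzyme, by 0.73 (SE 0.21; limma adjusted p = 0.0189). The Pts call ended with quantile normalization (0.43), and the Pcbd1 call ended without saline 1 (0.62), without saline 3 (0.61) and without LPS 2 (0.62). The count of 2 fell to 1 in each of those 3 fits. Gchfr, chosen after its values were seen because its protein holds GTP cyclohydrolase in check, was at 1.59 to 2.11 in saline and 1.76 to 2.50 in LPS (0.41; limma adjusted p = 0.148). Gch1 exceeded Gchfr by 0.86 to 1.44 in saline and by 2.31 to 3.43 in LPS.

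The 250 bases before the Gch1 start site are shown because this was the gene with the largest difference for which RefSeq (GRCm38.p6) sequence was at hand; windows were found for 4 of the 10 genes. Slc7a1, a gene of smaller difference, has a further window inside its gene model (chr5:148392816-148393065), which is not shown. The window directly before that gene model is shown beside that of Gch1 for comparison. Both are read 5′ to 3′ on the gene's own strand (minus), and capitals mark matches to the NF-kB pattern (GGG, then 5 bases of any kind, then CC) or the AP-1 pattern TGANTCA, searched on both strands.
Gch1 (chr14:47189414-47189663): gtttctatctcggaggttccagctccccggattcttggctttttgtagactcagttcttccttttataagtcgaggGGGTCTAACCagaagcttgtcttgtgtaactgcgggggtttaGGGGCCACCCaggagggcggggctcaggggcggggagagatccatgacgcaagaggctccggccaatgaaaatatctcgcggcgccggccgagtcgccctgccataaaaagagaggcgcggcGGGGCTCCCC
Slc7a1 (chr5:148399905-148400154): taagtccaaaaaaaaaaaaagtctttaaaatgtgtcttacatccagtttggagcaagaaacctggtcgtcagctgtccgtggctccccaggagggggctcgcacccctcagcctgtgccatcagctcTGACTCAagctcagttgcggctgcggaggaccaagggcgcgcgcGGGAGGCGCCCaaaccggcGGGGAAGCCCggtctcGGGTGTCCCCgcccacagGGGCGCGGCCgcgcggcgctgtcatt
Gch1 held 3 matches to the NF-kB pattern, which overlapped no other match, and none to AP-1, to the STAT pattern TTCNNNGAA, to the C/EBP pattern TTGCNNAA, to the hypoxia pattern ACGTG or to the cyclic AMP pattern TGACGTCA. The Slc7a1 window shown held 5 NF-kB matches, a pair of which overlapped, and 1 AP-1 match. The Slc7a1 window not shown held 1 match to the STAT pattern and none to the other patterns. Of 32851 promoter windows of this length 45.8% held the NF-kB pattern and 6.75% the AP-1 pattern, so that the first is a common match. The Gch1 window was 59.2% G or C, beside a median of 52.4% over all windows.

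The arginine transporters were higher in LPS by smaller amounts, each from 2 LPS values. Slc7a1 (ENSMUSG00000041313.14; chromosome 5, 148327410 to 148399904, minus strand), the widely expressed transporter CAT-1, stood at 2.09, 1.93 and 2.46 in saline and at 2.99 and 2.93 in LPS 1 and 2. The mean rose from 2.16 ± 0.27 (SD, n = 3) to 2.96 ± 0.04 (SD, n = 2), by 0.80 (SE 0.19; limma adjusted p = 0.00930). The gene was no longer called with no filter on low values (adjusted p = 0.0647) and with equal sums (0.12). Slc7a2 (ENSMUSG00000031596.15; chromosome 8, 40862396 to 40922308, plus strand), the transporter CAT-2 of activated macrophages, stood at 3.15, 3.11 and 2.95 in saline and at 3.40 and 3.69 in LPS 1 and 2. The difference was 0.48 (SE 0.17; limma adjusted p = 0.0439), with means of 3.07 ± 0.11 (SD, n = 3) and 3.55 ± 0.20 (SD, n = 2). It held in 4 of 15 other settings and turned to -0.26 with equal sums. The call was lost whichever saline library was left out (limma adjusted p = 0.0518 to 0.119). Without LPS 1 the difference was 0.62 and without LPS 2 it was 0.33, each from 1 LPS value. The call was also lost without LPS 3 (limma adjusted p = 0.0554), which holds no value of Slc7a2, so that its difference stayed at 0.48.

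Of 12 further transport genes 8 were tested, of which 6 were called higher and 0 lower, beside 25.7% and 24.3% of all genes tested, with a median difference of 0.95. The largest were Slc7a6 (1.07, SE 0.17), which exchanges cationic for neutral amino acids, Slc6a14 (1.05, SE 0.18), an epithelial importer of neutral and cationic amino acids, Slc3a2 (0.99, SE 0.20), the heavy chain that several of these exchangers need, and Slc7a8 (0.96, SE 0.21), an exchanger of neutral amino acids. Their limma adjusted p-values were 0.00144 to 0.00640, each from 2 LPS values, and with equal sums 0 of the 8 were called higher and 1 lower. The Slc3a2 call also ended with quantile normalization (0.47; limma adjusted p = 0.136), and the Slc7a8 call with no filter on low values (limma adjusted p = 0.0623).

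Ass1 (ENSMUSG00000076441.9; chromosome 2, 31470207 to 31520672, plus strand), which joins citrulline to aspartate, stood at 3.81, 3.59 and 4.36 in saline and at 4.68, 4.80 and 4.51 in LPS. The groups were separated by 0.15. The difference was 0.74 (SE 0.20; limma adjusted p = 0.0140), with means of 3.92 ± 0.39 and 4.66 ± 0.15 (SD, n = 3 each). The call held in 10 of 15 other settings. It ended without LPS 2 (0.67; limma adjusted p = 0.0514), with quantile normalization (0.58; limma adjusted p = 0.0588), with no filter on low values (limma adjusted p = 0.0772), at a threshold of 0.01 and with equal sums (-0.0204). Ass1 has a near-identical processed pseudogene, Gm5424 (ENSMUSG00000046687.6; chromosome 10, 62071123 to 62072362, plus strand), a copy without introns. Of the 1239 coding bases of Ass1, 1233 are the same in Gm5424, with no gap. A stretch with 2 of the 6 mismatches is shown because only reads that cross such a base differ between the genes; it runs from base 310 to base 429 counted from the A of the Ass1 start codon, in GENCODE transcripts of mm10, with the mismatches T399C and T429C in capitals.
Ass1: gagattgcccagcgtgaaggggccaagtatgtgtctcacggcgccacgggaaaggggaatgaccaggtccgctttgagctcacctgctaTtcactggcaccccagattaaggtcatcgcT
Gm5424: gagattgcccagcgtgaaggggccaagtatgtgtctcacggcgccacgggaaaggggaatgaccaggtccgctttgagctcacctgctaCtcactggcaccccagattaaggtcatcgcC
Of all windows of 50 bases in the Ass1 coding sequence 76.5% occur unchanged in Gm5424, and of windows of 100 bases 54.6%. The labels give neither the read length nor how reads matching both places were treated.

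The deposited values of Gm5424 differed between the groups in the opposite direction from Ass1. It was listed at 2.32, 3.18 and 0.96 in saline and at exactly 0 in every LPS library. On the scale before the log it made up 23.5%, 42.2% and 4.60% of the sum of both genes in saline, and saline 2, with the most Gm5424, had the least Ass1. The sum of both genes was 17.1, 19.1 and 20.4 in saline and 24.6, 26.9 and 21.8 in LPS. On the log2(sum + 1) scale this was 4.31 ± 0.13 against 4.66 ± 0.15 (SD, n = 3 each), a difference of 0.35 that did not pass (limma adjusted p = 0.0710), in a fit added after seeing the data. The plain sum takes no account of the different lengths of the transcripts. Among genes at a level of 1 or above in every saline library, 2 of 25 processed pseudogenes and 0 of 9275 protein-coding genes were listed at 0 in every LPS library. Gm5424 misses that minimum in saline 3. With the minimum lowered to 0.5, chosen after the values were seen so that Gm5424 is included, the counts were 3 of 31 and 2 of 10043. For Ass1, as for the other genes, treatment and the making of the tables cannot be told apart.

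**Figure D3:**
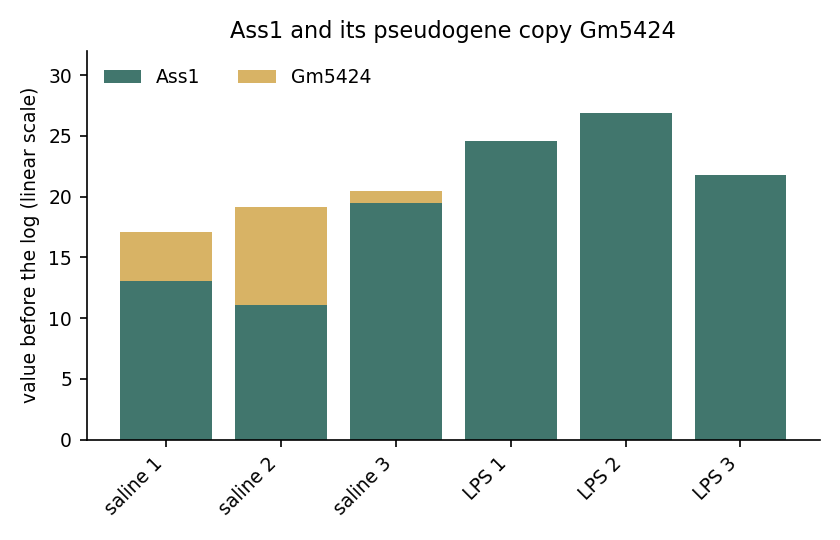
Value before the log (linear, stacked) of Ass1 and of its pseudogene copy Gm5424 in each library. Gm5424 makes up 4.60% to 42.2% of the sum in saline and is listed at 0 in LPS, so the sums (17.1 to 20.4 in saline, 21.8 to 26.9 in LPS) lie closer than Ass1 alone.

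Asl (ENSMUSG00000025533.15; chromosome 5, 130011258 to 130029247, minus strand), which releases arginine from argininosuccinate, stood at 3.48, 3.68 and 3.64 in saline and at 4.13, 4.35 and 4.31 in LPS. The spread within groups was small and the groups were separated by 0.45. The difference was 0.67 (SE 0.14; limma adjusted p = 0.00418), with means of 3.598 ± 0.11 and 4.26 ± 0.12 (SD, n = 3 each). It was past the threshold in 14 of 15 other settings and turned to -0.09 with equal sums.

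The directions of Slc7a2, Ass1, Asl, Nos3 and Nos2 rest on the scaling between libraries. Nos3 stood at 0.26 as deposited, 0.47 with quantile normalization and -0.41 with equal sums, and Nos2 at -0.25, 0.06 and -0.64. Scaling the values before the log so that all libraries have equal sums shifted the median difference over all genes tested from 0.02 to -0.68. Relative to that median the differences were 3.91 for Arg1, 2.803 for Arg2, 2.01 for Gch1, 0.80 for Slc7a1, 0.66 for Ass1, 0.59 for Asl, 0.42 for Slc7a2, 0.27 for Nos3 and 0.03 for Nos2.

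**Figure D4:**
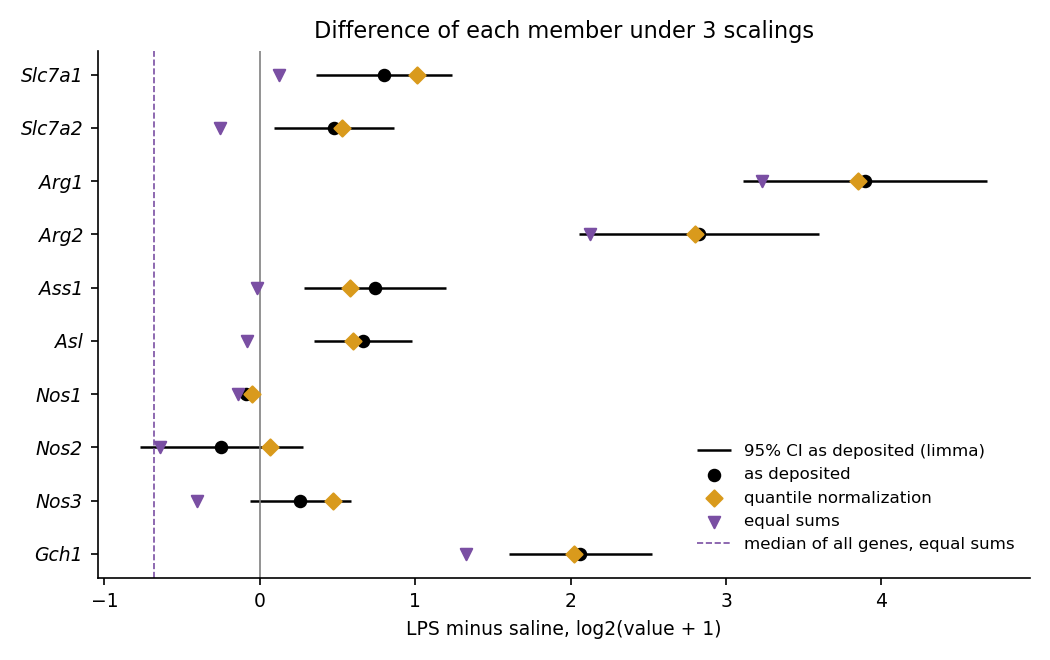
Difference of each gene (LPS minus saline, log2(value + 1)) as deposited with its 95% confidence interval from limma (black, none for the untested Nos1), with quantile normalization (yellow) and with equal sums (purple); the dashed line is the median of all genes with equal sums, -0.68. Arg1, Arg2 and Gch1 stay at 1.33 or above under each scaling, whereas Slc7a2, Ass1, Asl and Nos3 fall below 0 with equal sums. Nos2 is above 0 only with quantile normalization.

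The order of levels differed between the groups. In saline the highest means were those of Ass1 (3.92), Asl (3.598) and Slc7a2 (3.07), followed by Gch1 (2.87), Nos3 (2.38), Arg2 (2.37), Slc7a1 (2.16), Arg1 (1.76), Nos2 (1.11) and Nos1 (0.12). Neighbours in that order overlapped except Asl over Slc7a2 and Nos2 over Nos1. In LPS the order was Arg1 (5.66), Arg2 (5.19), Gch1 (4.94), Ass1 (4.66), Asl (4.26), Slc7a2 (3.55), Slc7a1 (2.96), Nos3 (2.64), Nos2 (0.86) and Nos1 (0.03). There Arg1 overlapped Arg2 and Arg2 overlapped Gch1, and the lowest Gch1 and the highest Ass1 value were both 4.80. Arg1 thus moved from the eighth to the first place.

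Of 11 genes of soluble guanylate cyclase, cyclic GMP and nitric oxide removal tested, 7 were called lower and 1 higher, beside 24.3% and 25.7% of all genes tested, with a median difference of -1.22. Gucy1a3, the alpha subunit of the cyclase that binds nitric oxide, stood at 5.80, 5.17 and 5.18 in saline and at 3.31, 2.95 and 3.24 in LPS, and fell by 2.22 (SE 0.20; limma adjusted p = 9.73e-05). Its partner Gucy1b3, the haem-bearing beta subunit, fell by 1.33 (SE 0.19; limma adjusted p = 0.000709). The phosphodiesterase genes Pde3a (-2.32, SE 0.23; limma adjusted p = 0.000155) and Pde5a (-2.16, SE 0.18; limma adjusted p = 7.95e-05), whose proteins break down cyclic nucleotides, fell further than the beta subunit. LPS values of these 4 genes, named for the size of their fall, lay wholly below the saline values, as did those of 30.7% of all genes tested. Prkg1, the cyclic GMP-dependent kinase of smooth muscle, chosen after its values were seen, was at 2.05 to 2.81 in saline and 0.86 to 1.42 in LPS. The gene called higher was Vasp, an actin regulator and substrate of that kinase that is also expressed in leukocytes and platelets, which rose by 1.77 (SE 0.24; limma adjusted p = 0.000707) on 2 LPS values. The 3 genes that did not pass, named after their values were seen, were the kinase gene Prkg2 (-0.15; limma adjusted p = 0.549), the phosphodiesterase gene Pde1a (-0.45; limma adjusted p = 0.0861) and Adh5 (0.38; limma adjusted p = 0.0911), whose enzyme breaks down S-nitrosoglutathione. Smooth muscle and pericyte markers moved with these genes: of 10 tested 7 were lower and 0 higher, and the 9 with a value in every library summed to 289 to 462 in saline and 129 to 245 in LPS. The most abundant were Acta2 (-0.90, lower) and Des (-0.40, not past the test). All 10 cardiac muscle markers were lower too, with Myl7 (-2.70) and Actc1 (-2.30) most abundant. The 7 cardiac markers with a value in every library summed to 1971, 680 and 235 in saline 1, 2 and 3 and to 48.7 to 162 in LPS. Saline 1, with the highest cardiac and smooth muscle sums, was also the highest saline library for Gucy1a3, Gucy1b3, Pde3a and Pde5a. The other libraries did not keep that order. Saline 3 had the lowest saline sums and the lowest Gucy1b3, but saline 2 was lowest for Gucy1a3, Pde3a and Pde5a. LPS 1 had the lowest sums (48.7 and 129) but the highest LPS values of Gucy1a3 (3.31) and Gucy1b3 (4.46). LPS 3, with the highest LPS sums (162 and 245), had the highest Pde3a (1.40) and the lowest Pde5a (2.84). The part of muscle cells in the cyclase result was not tested.

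Among synthase partners, protein arginine methyltransferase genes and genes for the breakdown of asymmetric dimethylarginine, a natural synthase inhibitor, 12 were tested. Of these, 6 were called higher and 2 lower, beside 25.7% and 24.3% of all genes tested, with a median difference of 0.39. Cav1, whose membrane protein holds the endothelial synthase inactive, fell from 8.44 to 8.72 in saline to 6.60 to 7.51 in LPS, a difference of -1.44 (SE 0.25; limma adjusted p = 0.00160). Nos1ap, an adaptor of the neuronal synthase, was at 1.10 to 1.57 and 0.30 to 0.46 (-1.03, SE 0.17; limma adjusted p = 0.00119). The methyltransferase genes Prmt1 (0.80), Prmt6 (0.60) and Prmt3 (0.49) and the gene Ddah1 (0.48), whose enzyme breaks the inhibitor down, rose (limma adjusted p = 0.00495 to 0.0324). The Prmt1 call ended with quantile normalization (0.32; limma adjusted p = 0.189) and with no filter on low values (limma adjusted p = 0.0605). Ddah2, named after its values were seen as the second gene of that enzyme family, was at -0.39 and did not pass. The Prmt3 call ended without saline 1 (0.42) and without LPS 2 (0.46), and the Ddah1 call without saline 1 (0.42), saline 3 (0.47), LPS 2 (0.41) or LPS 3 (0.43). With quantile normalization 3 of the 12 were called higher and 5 lower, and with equal sums 0 and 6. The 6 called higher became 2 without saline 1, 3 without saline 3, 2 without LPS 2 and 3 without LPS 3. The 2 called lower became 1 without saline 1, 1 without saline 2 and 1 without saline 3.

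Of 13 other arginine, ornithine and urea cycle genes tested, 2 rose and 2 fell, beside 25.7% and 24.3% of all genes tested, with a median difference of 0.20. Odc1, which turns the ornithine made by arginase into putrescine, stood at 5.52, 5.92 and 5.73 in saline and at 8.21, 7.26 and 7.71 in LPS and rose by 1.998 (SE 0.24; limma adjusted p = 0.000333). Oat, chosen after its values were seen as the enzyme of the competing route from ornithine towards proline, stood at 6.83 to 7.37 in saline and 6.87 to 7.22 in LPS (0.03; limma adjusted p = 0.907). Aldh18a1, which makes a proline precursor from glutamate, rose by 0.59 (SE 0.16; limma adjusted p = 0.0142) but did not pass without saline 1 (0.48; limma adjusted p = 0.0566). Gamt, the last enzyme of creatine synthesis, fell by 1.56 (SE 0.15; limma adjusted p = 0.000119), and Aldh4a1, an enzyme of proline breakdown, fell by 0.83 (SE 0.19; limma adjusted p = 0.00584). The urea cycle genes Cps1, Otc and Nags did not reach the minimum level for testing.

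**Figure D5:**
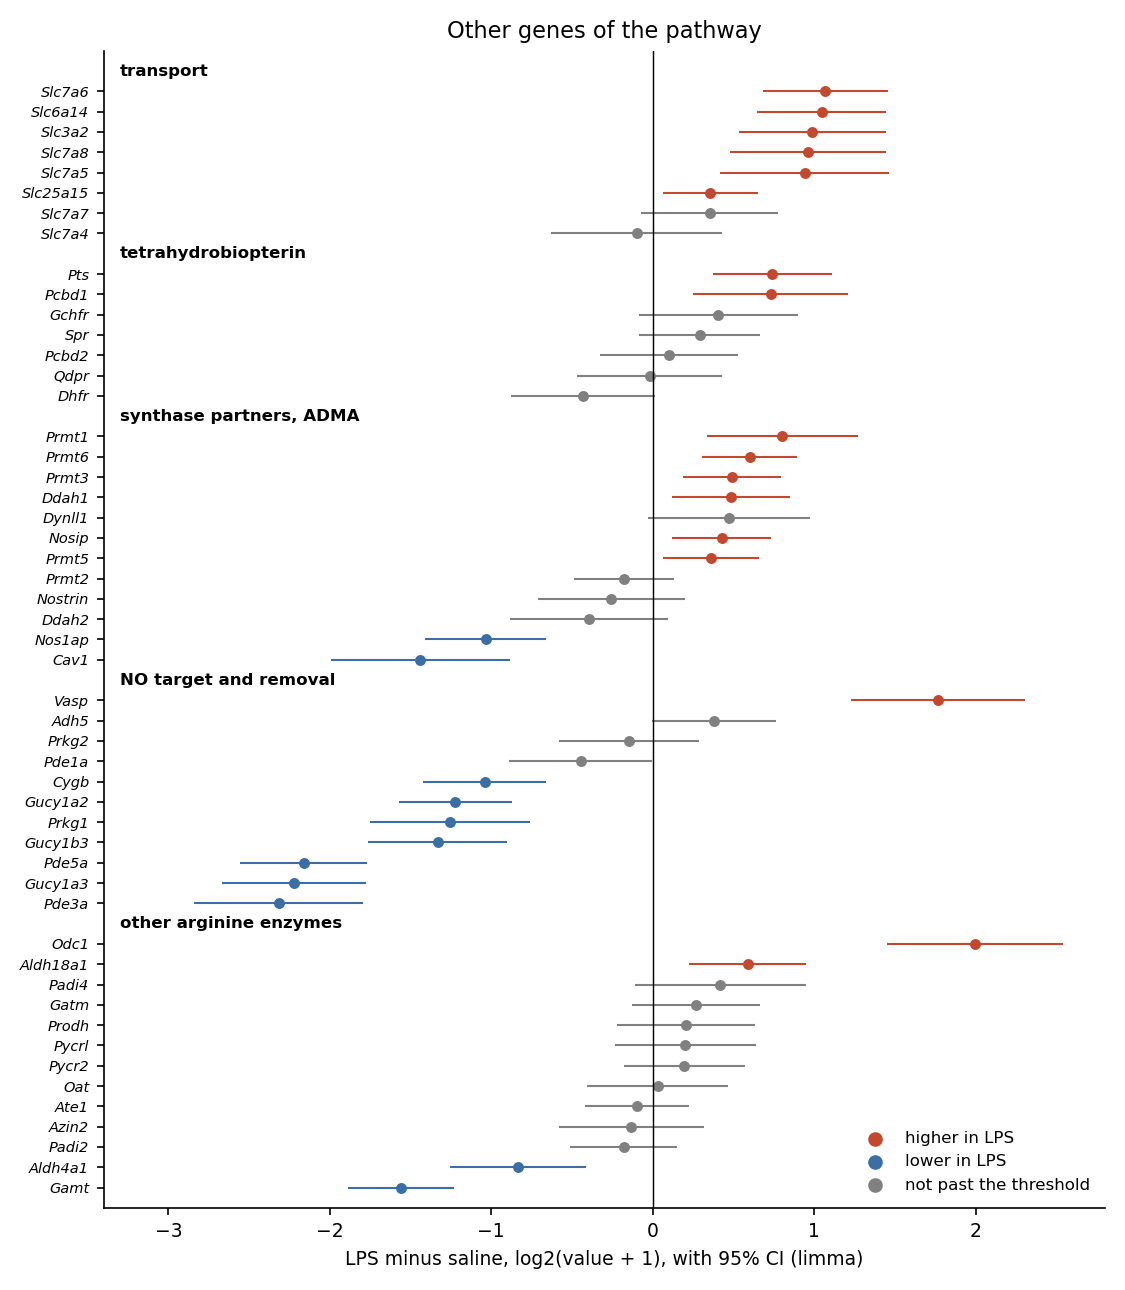
Difference (LPS minus saline, log2(value + 1)) with 95% confidence interval from limma for each tested gene of the 5 further gene lists (red higher, blue lower, grey not past an adjusted p of 0.05). Odc1 (1.998) and Vasp (1.77) lie furthest to the right, and 7 of 11 genes of the nitric oxide target and removal list lie below 0 and past the threshold.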

How the data were processed

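RNA of lung tissue was sequenced in 6 libraries, 3 per group, from total RNA extracted with Trizol and a directional kit, per the labels' protocols. Reads were aligned with TopHat to mm10, per the submitters' processing notes; counting tool, annotation, read length and scaling are not stated in those notes or labels. The deposited values are log2(value + 1), as read from the values themselves (minimum exactly 0, not whole). Values before the log above 0.005, times transcript length, pile up in steps (fullest bin of width 0.02 on the log2 scale, 13 to 22 genes, and 10 to 14 without the length), so they appear scaled by gene length. A narrower range, 0.01 to 0.5, set after a first look, gave 13 to 21 and 8 to 12.

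Genes with a value before the log of at least 1 in at least 3 libraries were tested (13116, of which 2821 had 2 LPS values) by limma (version 3.58.1; R 4.3.3) using a variance trend, 2 groups and no covariate, and Benjamini-Hochberg adjustment over all genes at 0.05. A gene without a value in LPS 3 was fitted on the libraries that had one. The fit was tested on simulated data. The genes and lists were chosen with earlier results of these data known. All 10 genes are named, with up to 4 called genes per direction of each further list, the 5 profiles nearest to Arg1 and to Nos2, and the sums and 2 most abundant genes of each marker list. Gene models are GENCODE vM21, for which 22148 of 23183 symbols matched. Near-identical copies were sought with blastn 2.17.0 (identity of at least 90% over at least 200 bases). Alternatives changed the filter, pseudocount, scaling, variance model, threshold, block and libraries.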

Additional observations from a re-analysis of the deposited data

How the results depend on the processing

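Arg1, Arg2 and Gch1 kept their direction and stayed past the threshold under all 15 other settings. With equal sums, 9 named genes that had been called higher turned below 0, none of them past the threshold: Slc7a2 (-0.26), Ass1 (-0.0204), Asl (-0.0852), Pts (-0.0395), Pcbd1 (-0.0137), Prmt6 (-0.0675), Prmt3 (-0.23), Ddah1 (-0.25) and Aldh18a1 (-0.10). Nos1 stood at -0.59 with a pseudocount of 0.1. Of the 10 genes, equal sums gave 3 higher and 1 lower (Nos2), and no filter gave 4 higher. Over all genes, equal sums gave 798 higher and 8343 lower, a threshold of 0.01 gave 2033 and 2004, and a mean of at least 5 left 1752 lower. Among transport genes, equal sums gave 0 higher and 1 lower, and a mean of at least 5 gave 3 higher (4 genes tested). Among tetrahydrobiopterin genes, equal sums gave 0 higher and 4 lower, no filter 1 higher and a threshold of 0.01 also 1; leaving out 1 library at a time gave 1 to 3 higher and 0 to 1 lower (1 without saline 1). Among synthase partners, quantile normalization gave 3 higher and 5 lower, equal sums 0 and 6, a threshold of 0.01 gave 1 higher, a mean of at least 5 gave 1 lower, and leaving out saline 2 with LPS 3 gave 1 lower; leaving out 1 library gave 2 to 7 higher and 1 to 3 lower. Among nitric oxide target genes, leaving out saline 2 with LPS 3 gave 2 higher and leaving out 1 library 1 to 2 (2 without saline 2). Among the other arginine enzymes, no filter gave 1 higher, quantile normalization 4, equal sums 1 with 8 lower and a threshold of 0.01 gave 1; leaving out 1 library gave 1 to 2 higher, 1 without saline 1. The cause was not tested, except that a stricter filter tests fewer genes.

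Replicate numbers shared by both groups gave no sign of pairing the libraries. Deviations from the group means correlated at -0.23, -0.08 and -0.25 for numbers 1, 2 and 3, and no library correlated best with its own number. With 3 libraries per group, such correlations cannot settle whether the libraries were paired. With the replicate block, 2793 genes were called higher and 2624 lower, and 6 of the 10 genes higher, Slc7a2 (0.41; limma adjusted p = 0.158) being the one lost. Where leaving out a library left Slc7a1 or Slc7a2 with 1 LPS value, that value was assumed to vary like the rest. Depth is unknown, so no detection limit can be given for Nos1 or Nos2.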
